A study of Danio rerio with 6 samples.

Results

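The genes opn1mw2, opn1mw4 and gnb3b encode parts of the light response of cone photoreceptors, and they are described here as they were measured in zebrafish retinal cells sorted as Müller glia (MG). They are 3 of the 23510 genes in the count file, and all 3 passed the filter on low counts that left 20329 genes for testing. The file lists Ensembl identifiers without names. Each gene was therefore taken as the identifier whose mean normalized count over the 6 libraries equals the one printed beside its name in a supplementary table of the study. This gave ENSDARG00000044280 for opn1mw2, ENSDARG00000000638 for opn1mw4 and ENSDARG00000002696 for gnb3b, and a gene table from Ensembl identifiers to symbols gives the same name to all 3. That supplementary table holds genes that changed with injury and with mycb mutation in these same libraries. It is further limited to genes whose regulation by mych, another Myc family gene, was insignificant. The results of the injury and mycb contrasts for the 3 genes are therefore not independent evidence of their direction.

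A cone detects light when photons change the shape of its opsin, a receptor in the outer segment membrane. The activated opsin switches on transducin, a G protein of alpha, beta and gamma subunits, which in turn activates a phosphodiesterase that breaks down cGMP and so closes cation channels. Opn1mw2 and Opn1mw4 are green-sensitive opsins, found in zebrafish in one member of the double cones, and Gnb3b is a beta subunit of the cone transducin. MG span the retina beside these cells, and in zebrafish they reprogram after injury and divide to give neurons. MG are not known for a light response of the cone kind.

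The RNAseq study compared 3 groups of 2 libraries each, all from gfap:GFP fish, in which a glial promoter drives GFP. The groups were uninjured Wt, Wt at 2 days post injury (dpi), also called injured Wt, and mycb mutant (mycb-/-) fish at 2 dpi, and the injuries were needle pokes into the retina. GFP+ cells of dissociated, pooled retinas were isolated by FACS and their polyA RNA was sequenced. The question was how gene expression in MG depends on injury and on Mycb, a transcription factor of the Myc family. The mycb mutation is a frameshift carried in the germline and is not confined to MG. No library of uninjured mycb mutant fish was analysed here, so a difference that existed before injury cannot be told apart from one that arose after it. The treatment label of the Wt 2 dpi libraries reads none, against their titles, which were followed. Nothing states which libraries came from separate sets of fish, and p-values then measure only the spread between these libraries. The level of mycb itself was not examined here, because its identifier could not be settled.

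The libraries held 47088844 to 64353562 counts. Counts were scaled between libraries by TMM and are given as CPM (counts relative to the scaled library size), which are not divided by gene length, so levels are compared between libraries and not between genes. The replicates of each group were unlike beyond counting error (chi-square per gene 108.7, 48.5 and 121.8 for uninjured Wt, Wt 2 dpi and mutant), so each library counts as 1 sample. Photoreceptor RNA was present in all sorted libraries. Summed over 18 cone genes, including opn1mw2, opn1mw4 and gnb3b, cone counts took 3.63 to 9.76% of each library, against 0.285 to 1.37% for 8 MG markers, a pair of ranges that depends on gene length. In these bulk samples fewer cones in the sort and less RNA per cone cannot be told apart, and neither can RNA made by GFP+ cells and RNA carried over from cones.

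**Figure D1:**
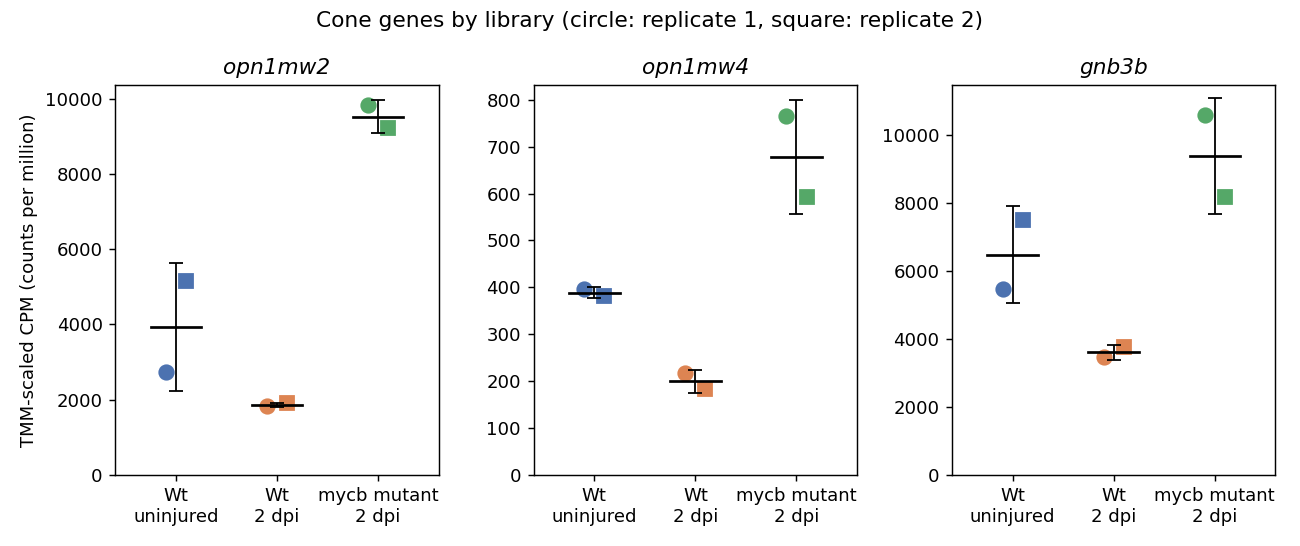
TMM-scaled CPM (y axis, from 0) of opn1mw2, opn1mw4 and gnb3b in each library of the 3 groups (x axis), with circles for replicate 1, squares for replicate 2, and lines with bars for the group mean and SD (n = 2). For each gene both Wt 2 dpi libraries are the lowest and both mycb mutant libraries the highest.

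The green opsin gene opn1mw2 had its lowest levels in injured Wt and its highest in the injured mutant. The counts were 162179 and 279758 in uninjured Wt, 119849 and 108853 in injured Wt, and 464712 and 408497 in mutants. After scaling, these were 2732 and 5148 CPM in uninjured Wt, 1817 and 1896 in injured Wt, and 9845 and 9227 in mutants. No group overlapped another, and the uninjured libraries lay far apart while those of each injured group lay close together. The group means were 3940.0 ± 1709 CPM (SD, n = 2) in uninjured Wt, 1856 ± 55.9 in injured Wt and 9536 ± 437 in the mutant. In the mutant libraries opn1mw2 alone took 0.987 and 0.821% of all counts, against 0.186 and 0.198% in Wt at 2 dpi.

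The second green opsin gene, opn1mw4, followed the same order at its own level. It had 23552 and 20679 counts in uninjured Wt, 14273 and 10470 in injured Wt, and 36111 and 26206 in mutants. Scaled, the libraries stood at 397 and 381 CPM in uninjured Wt, 216 and 182 in injured Wt, and 765 and 592 in mutants. The groups did not overlap, the uninjured libraries were nearly equal, and the mutant libraries differed the most. Group means were 389 ± 11.4, 199 ± 24.1 and 678 ± 122 CPM (SD, n = 2), in the same order of groups.

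The gene of the beta subunit, gnb3b, also had Wt at 2 dpi lowest and the mutant highest, with the groups closer to each other. Its counts were 324046 and 406619 in uninjured Wt, 227614 and 215877 in injured Wt, and 499633 and 361982 in mutants. In CPM these were 5458 and 7483, 3451 and 3759.9, and 10585 and 8177. No groups overlapped, but the higher uninjured library came close to the lower mutant library. The means were 6470 ± 1432 in uninjured Wt, 3605 ± 219 in injured Wt and 9381 ± 1703 in the mutant (SD, n = 2).

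Between uninjured Wt and Wt at 2 dpi all 3 genes fell. The fall was 2.12-fold for opn1mw2 (log2 fold change -1.09, SE 0.27, adjusted p = 0.0106), 1.95-fold for opn1mw4 (-0.96, SE 0.19, adjusted p = 0.00309) and 1.79-fold for gnb3b (-0.84, SE 0.22, adjusted p = 0.0128), by the quasi-likelihood test of edgeR with Benjamini-Hochberg adjustment over all genes tested. A gene was called where the adjusted p was at most 0.05 and the log2 fold change was above 0.5 in size. By that rule 17.4% of the genes tested were called lower at 2 dpi, and in 35.5% both Wt 2 dpi libraries lay below both uninjured ones. The calls of opn1mw2 and gnb3b depended on which libraries were kept. For opn1mw2 the call was lost without Wt 2 dpi replicate 1 (-1.06, adjusted p = 0.0678) or replicate 2 (-1.12, adjusted p = 0.0528), and without uninjured replicate 2 the value moved to -0.53 while the call held. For gnb3b it was lost without uninjured replicate 2 (-0.57, adjusted p = 0.0559), Wt 2 dpi replicate 1 (-0.78, adjusted p = 0.11) or Wt 2 dpi replicate 2 (-0.91, adjusted p = 0.0649). The call of opn1mw4 held without any one library.

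Between Wt and the mycb mutant at 2 dpi all 3 genes were higher in the mutant, opn1mw2 by the most. It was 5.14-fold higher (log2 fold change 2.36, SE 0.28, adjusted p = 0.00113), opn1mw4 was 3.4-fold higher (1.77, SE 0.19, adjusted p = 0.000927) and gnb3b 2.6-fold higher (1.38, SE 0.22, adjusted p = 0.00283), by the same test. Of all genes tested, 8.21% were called higher in the mutant, and in 25.3% both mutant libraries lay above both Wt ones. Leaving out any one library kept these calls, with log2 fold changes of 2.31 to 2.56 for opn1mw2, 1.57 to 2.10 for opn1mw4 and 1.18 to 1.71 for gnb3b. This contrast shares the Wt 2 dpi libraries with the injury contrast, so its size and that of the fall with injury are not independent of each other.

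Against uninjured Wt, the injured mutant held more RNA of opn1mw2 and opn1mw4. Opn1mw2 was 2.42-fold higher (log2 fold change 1.28, SE 0.27, adjusted p = 0.00683) and opn1mw4 1.75-fold higher (0.80, SE 0.19, adjusted p = 0.0111), while gnb3b did not pass the test at 1.45-fold (0.54, SE 0.22, adjusted p = 0.102). Among all genes tested, 12.2% were called higher and 13.4% lower in the mutant, and in 32.6% both mutant libraries lay above both uninjured ones. The call of opn1mw4 was lost without mutant replicate 1 (0.61, adjusted p = 0.0564), that of opn1mw2 held without any one library but moved to 1.97 without uninjured replicate 2, and gnb3b passed without uninjured replicate 2 (0.95, adjusted p = 0.0101) or mutant replicate 2 (0.88, adjusted p = 0.0214). This contrast differs in both genotype and injury, and the part of each cannot be told apart. Its libraries are the same ones from which the study's table was drawn.

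Zebrafish have 8 cone opsin genes, and the other 6 show how the green opsins stood within the family. In an annotation of another assembly, GRCz12tu, opn1mw1, opn1mw2, opn1mw3 and opn1mw4 follow one another without a gene between them, as do the blue opsin gene opn1sw2 and the red opsin genes opn1lw1 and opn1lw2, while gnb3b lies apart between tpi1a and si:dkey-89b17.4. Such tandem copies are similar in sequence, and the counting could have split reads between them, so that values of single copies are uncertain. The copies of an array are known to be used in different regions of the retina. Of the 4 genes opn1mw1, opn1mw3, opn1lw1 and opn1lw2, none is in the study's table, and their names come from the gene table alone. Since the study's table also leaves out genes regulated by mych, absence from it does not mean absence of a change with mycb mutation.

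The green opsin gene opn1mw3 showed the strongest difference of the 8 between the genotypes. It stood at 297 and 358 CPM in uninjured Wt, 193 and 136 in injured Wt, and 1475 and 955 in mutants, with no overlap of groups. It was 7.38-fold higher in the mutant than in Wt at 2 dpi (log2 fold change 2.88, adjusted p = 0.000906, same test) and 3.71-fold higher than in uninjured Wt (1.89, adjusted p = 0.000616). Its fall with injury in Wt (-0.99, adjusted p = 0.0115) was lost as a call without uninjured replicate 2 (-0.83, adjusted p = 0.0544) or Wt 2 dpi replicate 2 (-0.76, adjusted p = 0.1).

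The first gene of the array, opn1mw1, did not stand above uninjured Wt in the mutant. Its levels were 1237 and 2026 CPM in uninjured Wt, 523 and 793 in injured Wt, and 1759.6 and 1243 in mutants, so that the mutant and uninjured libraries overlapped. The log2 fold change between those groups was -0.12 (SE 0.29, adjusted p = 0.813), and it was 0.45 without uninjured replicate 2 and 0.27 without mutant replicate 2, not called in either case. Opn1mw1 fell with injury (-1.31, adjusted p = 0.0063) and was higher in the mutant than in Wt at 2 dpi (1.19, adjusted p = 0.0184). The first of these calls was lost without Wt 2 dpi replicate 1 (-1.04, adjusted p = 0.0578), and the second without that library (0.92, adjusted p = 0.145) or mutant replicate 1 (0.92, adjusted p = 0.0942). Within one array, then, the 3 neighbours opn1mw2, opn1mw3 and opn1mw4 were called higher in the mutant than in uninjured Wt and opn1mw1 was not, and the difference between the copies was not tested.

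**Figure D2:**
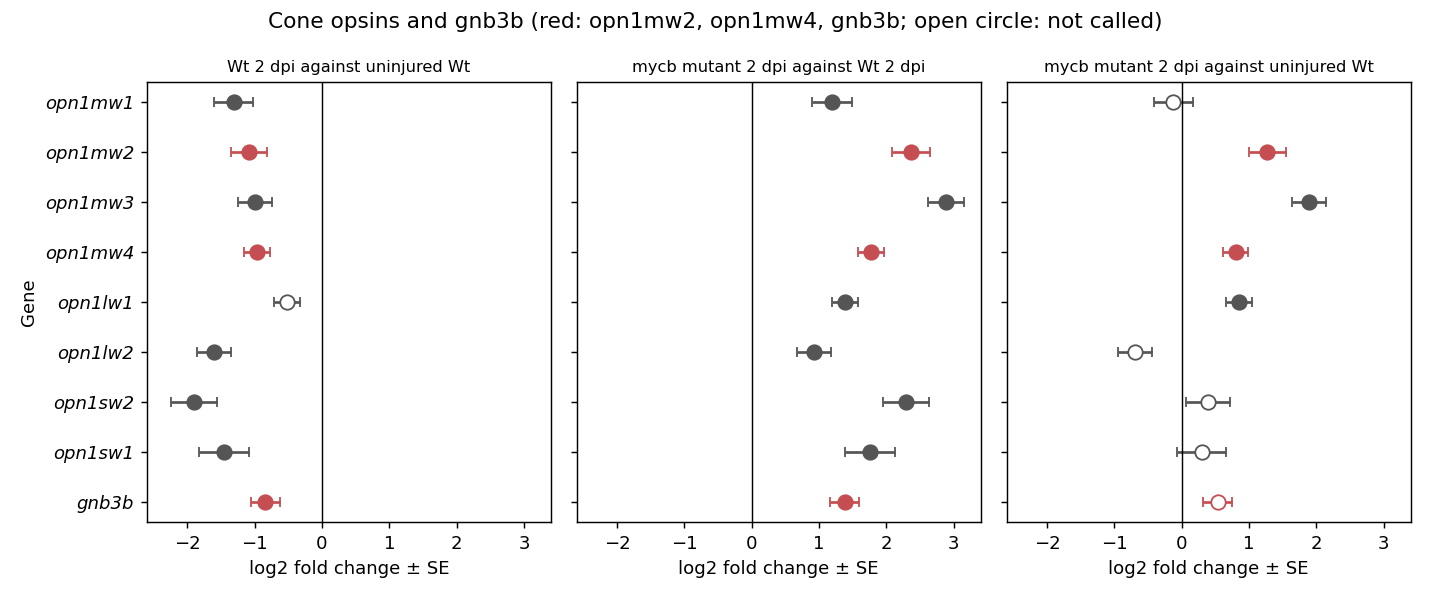
Log2 fold change with its SE (x axis) of the 8 cone opsin genes and gnb3b (y axis) in the 3 comparisons, from 6 libraries, with filled circles for called genes and open circles for genes not called. All lie below 0 with injury in Wt and above 0 in the mutant against Wt at 2 dpi, whereas against uninjured Wt they range from -0.69 for opn1lw2 to 1.89 for opn1mw3.

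The red opsin genes opn1lw1 and opn1lw2 differed from each other in a like way. Opn1lw1 had 9789.5 and 11483 CPM in uninjured Wt, 6582 and 8230.1 in injured Wt, and 19168 and 19381 in mutants. Opn1lw2 had 7341 and 12146, 2798 and 3592, and 5962 and 6129 CPM. For opn1lw1 both Wt groups were below the mutant, but for opn1lw2 the mutant libraries lay between injured and uninjured Wt. Against uninjured Wt, opn1lw1 was called higher in the mutant (log2 fold change 0.86, adjusted p = 0.00936), though not in a fit of those groups alone (0.86, adjusted p = 0.0547), and opn1lw2 was not called (-0.69, adjusted p = 0.0708). The second result depended on the processing, since opn1lw2 was called lower under 4 of 7 alternatives (DESeq2, library size only, no filter on low counts and the replicate block, adjusted p = 0.00374 to 0.144 over the 7) and without uninjured replicate 1 (-1.01, adjusted p = 0.0052), and stood at -0.12 without uninjured replicate 2. Against Wt at 2 dpi both were higher in the mutant, opn1lw1 with 1.38 (adjusted p = 0.0019) and opn1lw2 with 0.92 (adjusted p = 0.0282). The call of opn1lw2 was lost without Wt 2 dpi replicate 1 (0.75, adjusted p = 0.219), Wt 2 dpi replicate 2 (1.11, adjusted p = 0.0632) or mutant replicate 1 (0.94, adjusted p = 0.0613). With injury in Wt opn1lw2 fell (-1.61, adjusted p = 0.000972) and opn1lw1 was not called (-0.52, adjusted p = 0.0583). Opn1lw1 was near the threshold and was called lower under 5 of 7 alternatives (DESeq2, RLE size factors, library size only, no filter and the replicate block, adjusted p = 0.00399 to 0.0808 over the 7). It was also called without uninjured replicate 1 (-0.63, adjusted p = 0.0269), mutant replicate 1 (-0.52, adjusted p = 0.0344) or mutant replicate 2 (-0.51, adjusted p = 0.0441).

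The UV opsin gene opn1sw1 and the blue opsin gene opn1sw2, both in the study's table, fell with injury and were higher in the mutant at 2 dpi, and with all 6 libraries neither was called between the mutant and uninjured Wt. For opn1sw1 the log2 fold changes were -1.46 (adjusted p = 0.012), 1.75 (adjusted p = 0.00982) and 0.30 (adjusted p = 0.612). For opn1sw2 they were -1.90 (adjusted p = 0.00195), 2.29 (adjusted p = 0.00232) and 0.39 (adjusted p = 0.439). The mutant libraries of opn1sw1 stood far apart, at 779 and 1982 CPM, and its fall with injury was lost as a call without Wt 2 dpi replicate 2 (-1.34, adjusted p = 0.0612). Its difference between the genotypes at 2 dpi moved to 1.09 without mutant replicate 2 while the call held. Against uninjured Wt, opn1sw1 was called higher without mutant replicate 1 (0.82, adjusted p = 0.0371) and stood at -0.36 without mutant replicate 2. Opn1sw2 depended on the uninjured libraries. Without uninjured replicate 2 its fall with injury was -1.13, still called, and it was called higher in the mutant than in uninjured Wt (1.3, adjusted p = 0.00269), a value that was -0.098 without uninjured replicate 1. In the fit of all 6 libraries, 7 of the 8 cone opsins were called lower with injury in Wt, and the other one, opn1lw1, was also called under the alternatives named above. All 8 passed the test as higher in the mutant than in injured Wt, and 4 were called higher in the mutant than in uninjured Wt. Over all genes tested, 17.4% were called lower with injury, and 8.21 and 12.2% higher in these contrasts of the mutant.

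The share of each opsin in the counts of all 8 removes the total amount of cone opsin RNA from the comparison. Opn1mw2 made up 11.7 and 15.0% of these counts in uninjured Wt, 14.1 and 12.3% in injured Wt, and 23.9 and 22.5% in mutants. The Wt libraries overlapped across injury, and both mutant libraries lay above all 4 Wt libraries. The means were 13.3 ± 2.33, 13.2 ± 1.28 and 23.2 ± 0.997% (SD, n = 2), and the exact 95% binomial interval of any one library was narrower than the gap, as in mutant replicate 2, at 22.5 to 22.6%. These intervals cover counting error only. An exact two-sided permutation test of 2 against 2 libraries cannot go below p = 0.333, so the share was not tested between groups.

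Opn1mw4 held a small share in every group. It was 1.70 and 1.11% in uninjured Wt, 1.68 and 1.18% in injured Wt, and 1.86 and 1.45% in mutants, and the groups overlapped. Opn1mw3 had a mean of 1.16 ± 0.16% in uninjured Wt, 1.19 ± 0.43% in injured Wt and 2.96 ± 0.89% in the mutant, without overlap between the mutant and Wt libraries. Opn1mw1 had means of 5.59 ± 0.43, 4.59 ± 0.76 and 3.66 ± 0.88%, and its 2 injured groups overlapped. The shares of opn1mw2, opn1mw3 and opn1mw4 are parts of one total with that of opn1mw1 and are not independent of each other.

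Within the 4 green opsins alone, opn1mw2 took 58.6 and 65.1% of counts in uninjured Wt, 66.1 and 63.0% in injured Wt, and 71.1 and 76.8% in mutants. The mutant libraries were again above all Wt libraries. The share of opn1mw1 was 26.5 and 25.6%, 19.0 and 26.4%, and 12.7 and 10.3%, lowest in both mutant libraries. Opn1mw4 had 8.51 and 4.81%, 7.87 and 6.06%, and 5.53 and 4.93%, with the mutant inside the range of uninjured Wt. Among the red opsins, opn1lw2 had 42.9 and 51.4% of the pair's counts in uninjured Wt, 29.8 and 30.4% in injured Wt, and 23.7 and 24.0% in mutants, so that the balance differed between all 3 groups without overlap.

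**Figure D3:**
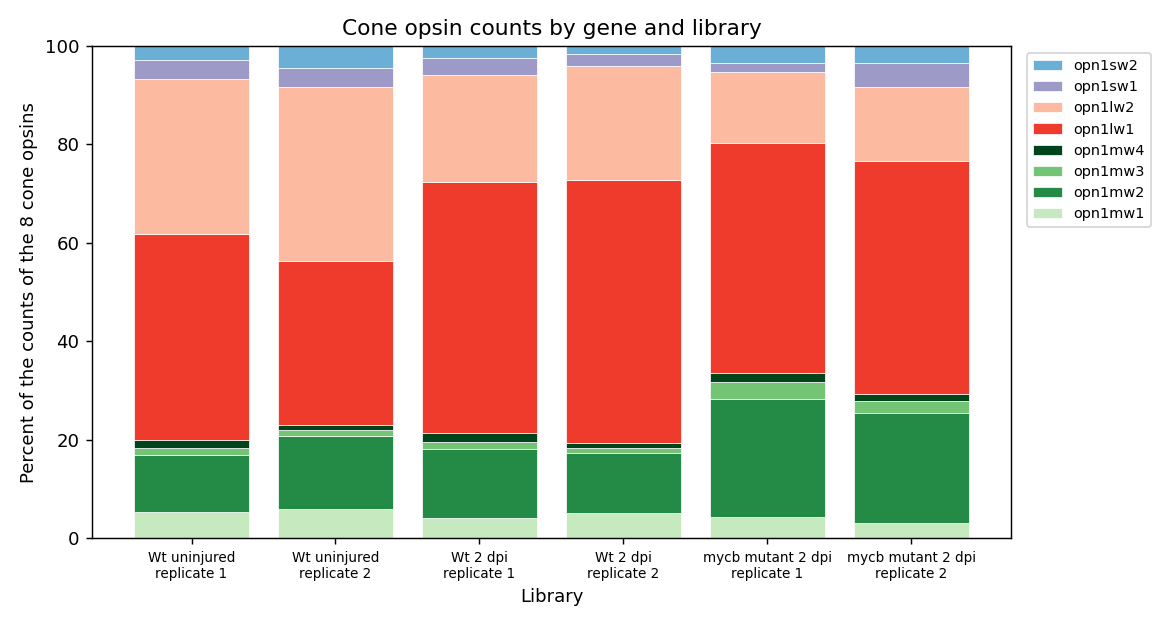
Percent of the summed counts of the 8 cone opsins (y axis) taken by each gene in each of the 6 libraries (x axis), stacked, with green for opn1mw1 to opn1mw4, red for opn1lw1 and opn1lw2, purple for opn1sw1 and blue for opn1sw2. The opn1mw2 segment is 11.7 to 15.0% in the 4 Wt libraries and 22.5 to 23.9% in the mutant libraries.

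Ratios of counts within a library need no scaling factor. The ratio of opn1mw2 to gnb3b was 0.501 and 0.688 in uninjured Wt, 0.526 and 0.504 in injured Wt, and 0.930 and 1.13 in mutants, where both libraries were above all Wt libraries. The ratio of opn1mw4 to gnb3b was 0.0727 and 0.0509, 0.0627 and 0.0485, and 0.0723 and 0.0724, with the mutant inside the range of uninjured Wt. Gnb3b, the beta subunit, was also set against gnat2, which encodes the cone transducin alpha subunit. That ratio was 0.943 and 0.922 in uninjured Wt, 0.911 and 0.936 in injured Wt, and 1.13 and 1.03 in mutants, and the mutant libraries were the highest. Opn1mw2 against gnat2 gave 0.472 and 0.634, 0.480 and 0.472, and 1.05 and 1.17. A ratio shows unequal change of its genes and not which one changed.

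Other genes of the cone light response, 11 in a list drawn from the study's table, were set beside the 3 genes. With injury 10 of 11 were called lower, with a median log2 fold change of -0.83 against 0.00 over all genes tested. The exception was pde6c, the catalytic subunit of the cone phosphodiesterase, at -0.58 (adjusted p = 0.0601). Without uninjured replicate 2 the count was 6, and without Wt 2 dpi replicates 1 and 2 in turn it was 6 and 5. In the mutant against Wt at 2 dpi 11 of 11 were called higher, with a median of 1.36 against -0.13 over all genes, and 7 were called without Wt 2 dpi replicate 1. Over all genes tested, 17.4% were called lower with injury and 8.21% higher in the mutant at 2 dpi. Because the study drew its table from these contrasts, the counts of listed genes are not independent evidence of direction.

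Against uninjured Wt, 1 of the 11 was called higher in the mutant, rgs9a, whose product speeds the shutoff of transducin (0.59, adjusted p = 0.0488). Over all genes tested, 12.2% were called higher in this contrast. The list's median was 0.32, against 0.02 over all genes, and all 11 fold changes were above 0, from 0.08 for gngt2a, a transducin gamma subunit, to 0.76 for cnga3a, a subunit of the cone channel (adjusted p = 0.0702). Gnat2 stood at 0.31 (adjusted p = 0.316) and pde6c at 0.55 (adjusted p = 0.0918). The count was 8 without uninjured replicate 2, 2 without mutant replicate 2, and 0 without any one of uninjured replicate 1 and both Wt 2 dpi replicates. At 1.28 and 0.80, opn1mw2 and opn1mw4 lay above every gene of this list, opn1mw4 only narrowly above cnga3a. Gnb3b, at 0.54, lay inside the list's range. Of the opsins outside the list, opn1mw3 stood above opn1mw2 and opn1mw4, at 1.89, and opn1lw1 above opn1mw4, at 0.86.

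The rod counterparts, 17 genes of the same table, moved further with injury. All 17 were called lower, beside 17.4% of all genes tested, with a median of -3.35. In the mutant against Wt at 2 dpi 16 were called higher, beside 8.21% of all genes, with a median of 2.63. The exception was sagb, a rod arrestin (0.68, adjusted p = 0.0806). Against uninjured Wt, 12 of the 17 rod genes were below 0 and the median was -0.40. Called lower were 2, beside 13.4% of all genes tested. They were pde6a, a phosphodiesterase subunit, and grk1a, a kinase that helps to shut off the light response. That count was 7 without uninjured replicate 1, 1 without mutant replicate 1, and 0 without uninjured replicate 2 or mutant replicate 2.

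A further 21 photoreceptor genes were listed as shared by rods and cones, but the use of each gene by either kind was not checked. All 21 were called lower with injury (median -1.24) and all higher in the mutant at 2 dpi (median 1.52). Over all genes tested these calls took 17.4 and 8.21%. The list was mixed. Its changes with injury ran from -0.62 for cdhr1a to -3.64 for gc2, beside medians of -0.83 for the cone list and -3.35 for the rod list. Against uninjured Wt 3 were called higher and 1 lower, beside 12.2 and 13.4% of all genes tested, and the median was 0.23. Those called higher included prph2la (0.81, adjusted p = 0.0144), a peripherin-like gene, and cdhr1a (0.64, adjusted p = 0.0283), an outer segment cadherin, and the one called lower was gc2 (-0.95, adjusted p = 0.0239), a guanylate cyclase. All genes of the rod and shared lists are in the study's table.

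**Figure D4:**
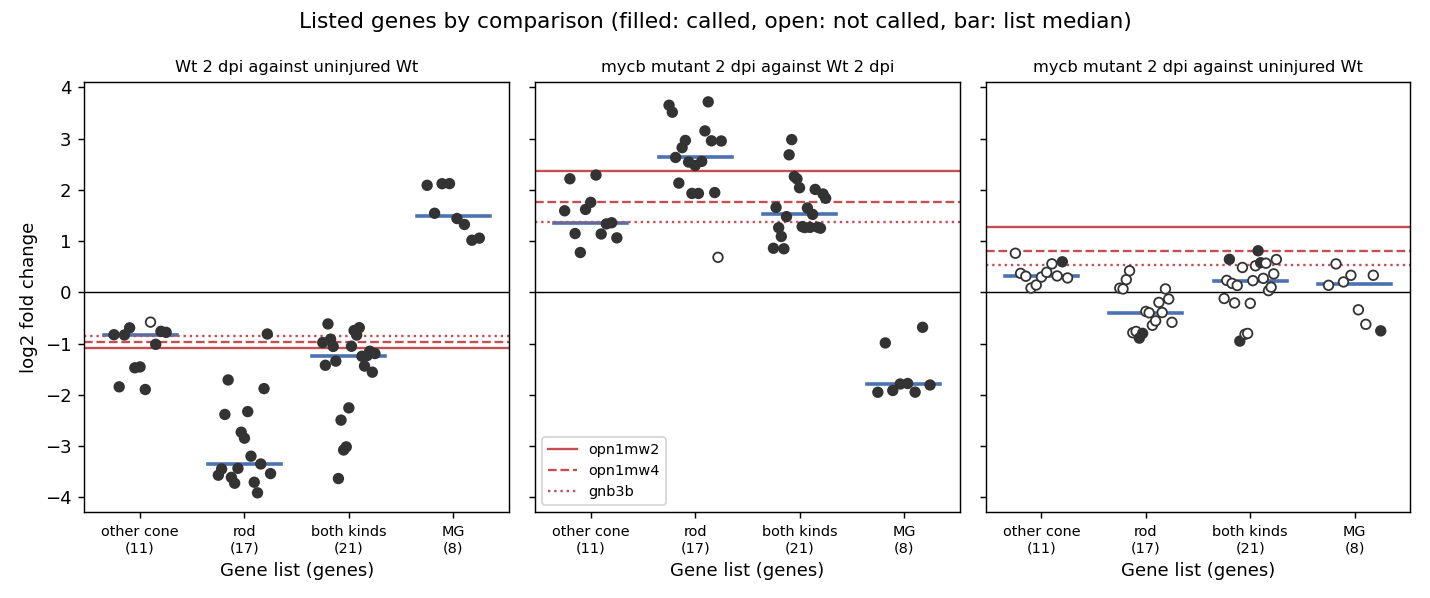
Log2 fold change (y axis) of each gene of the other cone, rod, shared photoreceptor and MG lists (x axis, with the number of genes) in the 3 comparisons, filled where called, with list medians as blue bars and opn1mw2, opn1mw4 and gnb3b as red lines. Against uninjured Wt, opn1mw2 at 1.28 lies above every gene of these lists, which do not hold opn1mw3 (1.89), and rod genes have a median of -0.40.

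Listed beside gnb3b were 4 other G protein beta subunit genes, gnb1a, gnb1b, gnb5a and gnb5b, and further members of the family were not examined. Gnb1 serves rod transducin in mammals, and Gnb5 binds RGS proteins such as Rgs9. Gnb1a had 576 and 859 CPM in uninjured Wt, 125 and 157 in injured Wt, and 351 and 425 in mutants, with the mutant between the others. It fell with injury (-2.34, adjusted p = 7.84e-05), was higher in the mutant than in Wt at 2 dpi (1.46, adjusted p = 0.00276) and was lower than in uninjured Wt (-0.89, adjusted p = 0.0172). Gnb5a fell with injury as gnb3b did (-0.72, adjusted p = 0.0223) but, unlike gnb3b, was lower still in the mutant than in Wt at 2 dpi (-1.10, adjusted p = 0.00651). All 4 were called lower with injury, beside 17.4% of all genes tested, and 3 higher in the mutant at 2 dpi, beside 8.21%. These calls are not independent evidence, since the genes also come from the study's table. Against uninjured Wt, gnb3b was not called (0.54, adjusted p = 0.102, same test), although its mutant libraries lay above without overlap. That pattern was seen in 32.6% of all genes tested and does not set gnb3b apart from the other listed genes. Gnb1b and gnb5b overlapped between these groups and were not called.

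The 3 listed non-visual opsins are also in the study's table, and which retinal cells hold them was not examined. All 3 were below 0 with injury and above 0 in the mutant against Wt at 2 dpi, but not all were called. Opn6a had 58.3 and 84.9 CPM in uninjured Wt, 36.3 and 56.8 in injured Wt, and 178 and 250 in mutants, above both Wt groups. It was called higher in the mutant than in Wt at 2 dpi (2.20, adjusted p = 0.00133) and than in uninjured Wt (1.58, adjusted p = 0.00245), while its change with injury was not called (-0.62, adjusted p = 0.101). Parietopsin and tmtops2a fell with injury (-1.45, adjusted p = 0.00872, and -1.49, adjusted p = 0.0154) and were not called in either contrast of the mutant. Against Wt at 2 dpi they were near the threshold (1.07, adjusted p = 0.0547, and 1.18, adjusted p = 0.0631). Against uninjured Wt they stood at -0.38 and -0.31. Among all genes tested, 17.4% were called lower with injury. In the mutant, 8.21% were called higher against Wt at 2 dpi and 12.2% against uninjured Wt.

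The genes whose levels over the 6 libraries were most like those of each of the 3 were looked up among 1160 named genes, by Pearson correlation of log2 CPM, as a description. For opn1mw2 they were map1ab (r = 0.994), pde6c (0.992), mpp5b (0.990), gabra6a (0.990) and cdhr1a (0.989). For opn1mw4 they were prph2la (0.996), ankrd10a (0.994), pdha1b (0.990), nfat5b (0.989) and atp11a (0.988). For gnb3b they were scg3 (0.997), fscn2a (0.997), dyrk3 (0.996), CU639468.1 (0.996) and mbd3a (0.993). Of these names, prph2la, cdhr1a and pde6c are in the photoreceptor lists used here, and all the others are in none of the lists. No name appears for more than 1 of the 3. Among the 3 themselves r was 0.936 for opn1mw2 with opn1mw4, 0.968 for opn1mw2 with gnb3b and 0.954 for opn1mw4 with gnb3b. Of the 20329 genes tested, named or not, 2 to 20 had an r at least as high as the listed ones. The 6 points fall into 3 groups, and the named genes were chosen by the study for changing in the same contrasts.

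Markers of MG moved against the cone genes. Summed, 8 MG markers took 0.384 and 0.285% of counts in uninjured Wt, 1.37 and 1.29% in injured Wt, and 0.311 and 0.375% in mutants. Most of each sum was apoeb alone, with 0.264 and 0.203%, 1.025 and 0.968%, and 0.2145 and 0.253% in the same order. The 3 cone genes took 0.923 and 1.27%, 0.562 and 0.609%, and 2.13 and 1.60%. The group with the most MG marker RNA thus had the least RNA of opn1mw2, opn1mw4 and gnb3b. All 8 markers were called higher with injury (median 1.49), as were 19.2% of all genes tested, and all 8 lower in the mutant than in Wt at 2 dpi (median -1.80), as were 12.2% of all genes. The markers, too, were taken from the study's table of genes that changed in these contrasts, so these counts are not independent evidence. Gfap, the glial filament whose promoter drives the GFP used for sorting, stood at 196 and 159 CPM in uninjured Wt, 837 and 705 in injured Wt, and 162 and 246 in mutants. The markers' part in the results of the cone genes was not tested.

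Between the mutant and uninjured Wt the 8 MG markers had a median log2 fold change of 0.17 and 5 of 8 values above 0, and the summed share of the mutant libraries lay inside the range of uninjured Wt, where opn1mw2 and opn1mw4 were called higher. Markers of other cells, from the same table, also moved. The amacrine genes gad1b and vip and the oligodendrocyte gene sox10 were called lower in all 3 contrasts, at -2.03, -1.69 and -1.91 between the mutant and uninjured Wt. Lcp1, a leukocyte gene, was called higher in all 3, from 1.90 and 3.17 CPM in uninjured Wt to 7.14 and 11.2 in injured Wt and 18.1 and 25.4 in the mutant. The endothelial gene cldn5a was higher in both injured groups than in uninjured Wt (3.68 in Wt and 2.61 in the mutant) and lower in the mutant than in Wt at 2 dpi (-1.07), and cd74a, of antigen presenting cells, was called lower with injury (-1.50) and in neither contrast of the mutant. Over all genes tested, 17.4% were called lower and 19.2% higher with injury. In the mutant these shares were 12.2 and 8.21% against Wt at 2 dpi, and 13.4 and 12.2% against uninjured Wt. The part of these other markers in the results was not tested.

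**Figure D5:**
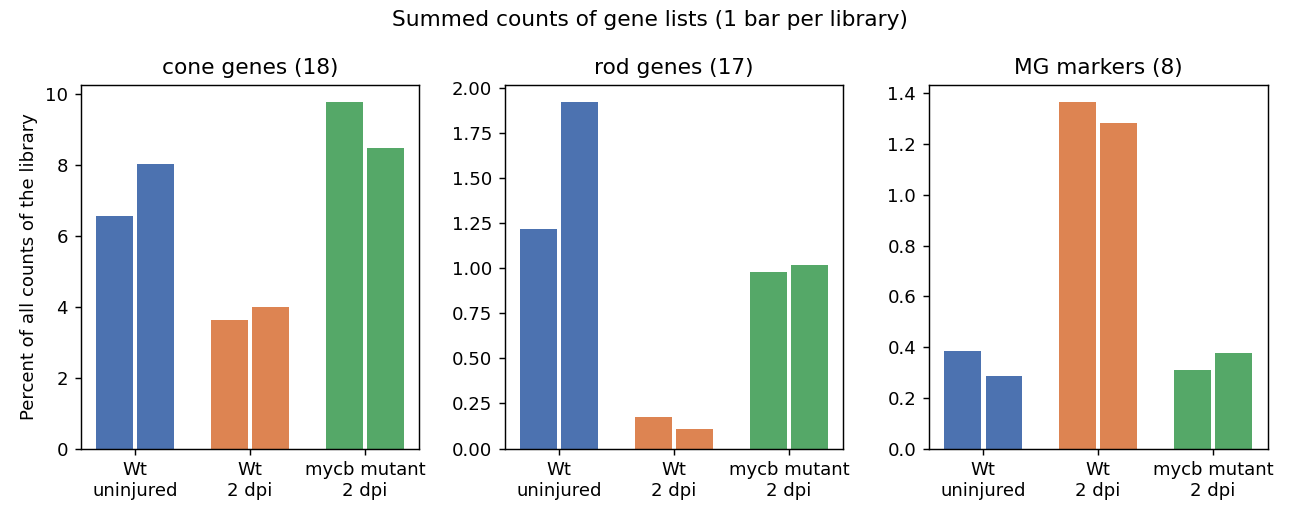
Percent of all counts of each library (y axis, from 0) held by 18 cone genes, 17 rod genes and 8 MG markers, with 1 bar per library in each of the 3 groups (x axis) and a scale of its own in each panel. Cone genes are lowest in Wt at 2 dpi (3.63 and 3.99%) and MG markers, mostly apoeb, highest there (1.37 and 1.29%).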

How the data were processed

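RNAseq of GFP+ cells was examined in 6 libraries, 2 each of uninjured Wt, Wt 2 dpi and mycb mutant 2 dpi. The deposited values are whole-number counts for each gene, not normalized, from reads that the authors mapped to GRCz11. The submitters' processing notes list cutadapt 2.3, FastQC 0.11.8, STAR 2.7.8a, RSEM 1.3.3 and DESeq2, without their roles, and the annotation and strand setting are not given in the sources used here. Groups and replicate numbers came from the sample titles.

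Genes were filtered (filterByExpr, minimum count 10), scaled by TMM and tested by quasi-likelihood in edgeR 4.0.16 (R 4.3.3), in a single model of the 3 groups over the 6 libraries with 3 residual degrees of freedom. P-values were adjusted by Benjamini-Hochberg over 20329 genes. The study's FPKM threshold was not applied, since gene lengths were not used. The alternatives were DESeq2 1.42.0, RLE size factors, library size only, TMM without listed photoreceptor genes, no filter, only the groups compared, a replicate block, and each library left out in turn. The TMM alternative left out opn1mw2, opn1mw4, gnb3b and the cone, rod and shared lists. It kept opn1mw1, opn1mw3, opn1lw1 and opn1lw2. Where a group kept 1 library, its spread was assumed to be that of the other groups. The method was tested on simulated counts.

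Names of listed genes were paired by mean normalized count with the study's table, in which 1164 of 1182 genes matched a single identifier. Of the 70 listed genes and the 3 genes together, 44 had the same symbol in the gene table, case ignored. The rest had another symbol or none, such as PDE6B for pde6a, PDE6H for pde6ga and GNG11 for gngt1, and kept the study's name. Named were opn1mw2, opn1mw4, gnb3b, the other cone opsins, genes of fixed lists (cone, rod, shared photoreceptor, G beta, non-visual opsins, MG, other cells) and the 5 named genes most correlated with each of the 3. The genes and lists were chosen with earlier results of these data known. Some results are not reported here.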

Additional observations from a re-analysis of the deposited data

How the results depend on the processing

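The direction of every contrast of opn1mw2, opn1mw4 and gnb3b was the same under all alternatives. Apart from leaving out libraries, 61 of 63 values stayed on the same side of the threshold. The exception was gnb3b between the mutant and uninjured Wt, which passed with DESeq2 (0.58, adjusted p = 0.014) and with no filter on low counts (0.54, adjusted p = 0.0328), and whose adjusted p ranged from 0.014 to 0.223 over these alternatives. In the same contrast the cone list had 1 gene called, and 3 with DESeq2, 0 with library size only, 3 with no filter and 0 in a fit of the compared groups. The rod list had 2, and 5 with DESeq2, 4 with library size only and 7 with no filter. The cause was not tested.

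With each library left out, the log2 fold changes with injury in Wt ranged from -1.47 to -0.53 for opn1mw2, -1.09 to -0.84 for opn1mw4 and -1.05 to -0.57 for gnb3b. Against uninjured Wt the mutant ranged from 0.89 to 1.97, 0.61 to 1.15 and 0.33 to 0.95. The called cone genes numbered 5 to 11, 7 to 11 and 0 to 8 in the contrasts of injury, of the mutant at 2 dpi and of the mutant against uninjured Wt, and the called rod genes 16 to 17, 16 to 17 and 0 to 7.

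Same-numbered libraries showed no strong shared deviation, with correlations of -0.0074, 0.018 and -0.044 over genes. With a single difference per group, this cannot tell whether the libraries were collected or processed in pairs. With the replicate number as a block no call of the 3 genes changed, as for opn1mw2, at -1.04, 2.37 and 1.33. Scaling by library size only moved the median of all genes by -0.13 between the mutant and Wt at 2 dpi and by -0.11 between the mutant and uninjured Wt. A fit of the compared groups moved it by 0.14 between mutant and Wt at 2 dpi.

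With 2 libraries per group the spread is poorly known, and counting error is small beside it at these depths. How reads of tandem opsin copies were shared by the counting was not examined.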
